A study of Mus musculus with 12 samples.

Results

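The response of Lpcat3 knockout livers to a high-fat, high-sugar diet is described here across all measured genes, from 6 of the 12 RNA-seq libraries of the series. The 6 libraries were chosen by their group label, 3 labelled LKO-HFHS and 3 labelled LKO-NC. The LKO-HFHS livers came from male C57BL/6 mice of genotype LPCAT3flox/flox-cre that were fed the diet abbreviated HFHS for 16 weeks. The LKO-NC livers came from male C57BL/6 mice of that genotype with the treatment label control, for which no feeding time is given. The FLOX-HFHS and FLOX-NC groups, of 3 libraries each, have the genotype LPCAT3flox/flox and the same diets. They set the response of LKO livers beside that of livers without Cre. They were also fitted in the same model, so they bear on the filter, the scaling and the estimate of spread behind the LKO results. Mice of all 4 groups carry floxed Lpcat3 alleles. The age label reads 8 to 10 weeks for every mouse, which is less than the feeding time, so the age at sampling of the HFHS mice is not given by it. One label names sucrose as the sugar of the diet and the design text names fructose. The promoter that drives Cre and the exons that were floxed are not given in the sources used here. Nothing in the labels ties a library to a mouse of its own, and the p-values therefore reflect only the spread among these samples, part or all of which can be technical.

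Lpcat3 encodes an acyltransferase that puts polyunsaturated fatty acids into membrane phospholipids, and it is itself a target of the sterol-sensing receptor LXR. In the mouse liver, pulses of growth hormone in males and its steadier presence in females set, through STAT5, which of a large group of secreted proteins, cytochromes P450 and transporters are made. A diet rich in fat and sugar is known to raise the enzymes that turn sugar into fatty acids and, over months, to bring macrophages and scar matrix into the liver.

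The targeted gene was read first. Lpcat3 (ENSMUSG00000004270, mm10 chromosome 6, 124663027 to 124704418, plus strand) stood at 25.0, 25.9 and 29.4 CPM in LKO-HFHS livers, against 25.4, 65.0 and 19.4 CPM in LKO-NC livers, in CPM, which are counts scaled to library size and by TMM factors. In CPM the library labelled LKO-NC replicate 2 stood apart from the other 5 LKO libraries and within the range of the floxed livers, which had 72.6, 80.6 and 75.7 CPM in FLOX-HFHS livers, against 49.7, 49.9 and 61.9 CPM in FLOX-NC livers. The deposited FPKM did not separate the genotypes in this way. They were 14.5, 12.5 and 22.8 in LKO-HFHS and 16.1, 25.6 and 11.7 in LKO-NC livers, against 15.8 to 33.4 in the floxed livers, a range that holds LKO-HFHS 3 and LKO-NC 1 as well as LKO-NC 2. By diet, Lpcat3 changed by -0.45 ± 0.35 (log2, SE) in LKO livers, with an adjusted p of 0.562. Without the library labelled LKO-NC replicate 2 it turned to 0.26 with an adjusted p of 0.722, so no direction is drawn for this gene. Counts over all exons also hold reads from exons that Cre leaves in place. Counts of called genes in the lists described below are given with and without the library labelled LKO-NC replicate 2. The call of a gene named below also held without each of the 6 LKO libraries in turn, unless the libraries without which it was lost are given, by group and replicate number, with the adjusted p.

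Total counts ran from 42249170 to 55396065 in LKO-HFHS and from 37312197 to 52125441 in LKO-NC libraries. After a filter on low counts 15982 of 55401 genes were tested. The ribosomal RNA gene CT010467.1 took 8.33% to 26.8% of the counts of an LKO-HFHS library and 5.81% to 9.45% of those of an LKO-NC library. Genes of mitochondrial DNA took 14.0% to 21.5% in LKO-HFHS and 14.6% to 28.1% in LKO-NC. The 13 hepatocyte markers in the files all had counts, and their summed level was 54542 to 55157 CPM in LKO-HFHS and 89341 to 108912 CPM in LKO-NC. The summed level did not overlap between the diets in LKO livers. In floxed livers it did, with 56162 to 67368 CPM in FLOX-HFHS and 57605 to 122685 CPM in FLOX-NC. In bulk tissue, fewer cells of a type and less RNA per cell cannot be told apart.

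At an adjusted p under 0.05 (Benjamini-Hochberg over the whole table, from edgeR's quasi-likelihood test), 359 genes were higher in LKO-HFHS than in LKO-NC livers, which is 2.25% of the tested genes, and 240 were lower, which is 1.5%. Together these 599 genes make 3.75% of the tested genes, and 553 of them are protein-coding. Below, a gene is said to have risen or fallen only if it passed this test. In all 599 the CPM values of the 3 LKO-HFHS libraries lay wholly above or wholly below those of the 3 LKO-NC libraries, as did those of 29.9% of all tested genes. At least 2-fold changes made up 543 of the calls, 346 higher and 197 lower.

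Without the library labelled LKO-NC replicate 2, 151 genes were higher (0.895% of 16878 tested) and 118 lower (0.699%), 269 in all or 1.59%. Of these 269 genes, 252 were among the 599, which is 93.7% of the smaller and 42.1% of the larger set. All 599 kept the sign of their change. Changes of scaling aside, this had to follow, as the values of none of them overlapped between the groups. The count was 305, 370 and 220 without LKO-HFHS replicates 1, 2 and 3, and 350 and 395 without LKO-NC replicates 1 and 3. It was 882 with the 6 LKO libraries alone. With 1 FLOX library left out it ran from 464 (without FLOX-HFHS replicate 3) to 887 (without FLOX-NC replicate 1). A fit with replicate numbers as blocks gave 615 genes higher (3.85%) and 503 lower (3.15%), 1118 in all or 7% of those tested. When library sizes were used unscaled, 410 genes were higher (2.57%) and 99 lower (0.619%), 509 in all or 3.18%. DESeq2 called 1562 genes (9.77%), 928 higher (5.81%) and 634 lower (3.97%). The median log2 fold change of all tested genes was 0.32 without scaling and 0.05 with it, and log2 fold changes below are on the scaled values.

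The 240 genes that fell held a large part of the RNA counts of LKO-NC livers. They took 1.99%, 2.97% and 2.57% of all counts in the LKO-HFHS libraries, against 7.41%, 11.2% and 12.5% in the LKO-NC libraries. The 359 genes that rose took 1.81%, 2.48% and 3.34% in LKO-HFHS, against 0.510%, 0.515% and 0.546% in LKO-NC. These sets were chosen on these values, so the shares describe them and test nothing.

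**Figure D1:**
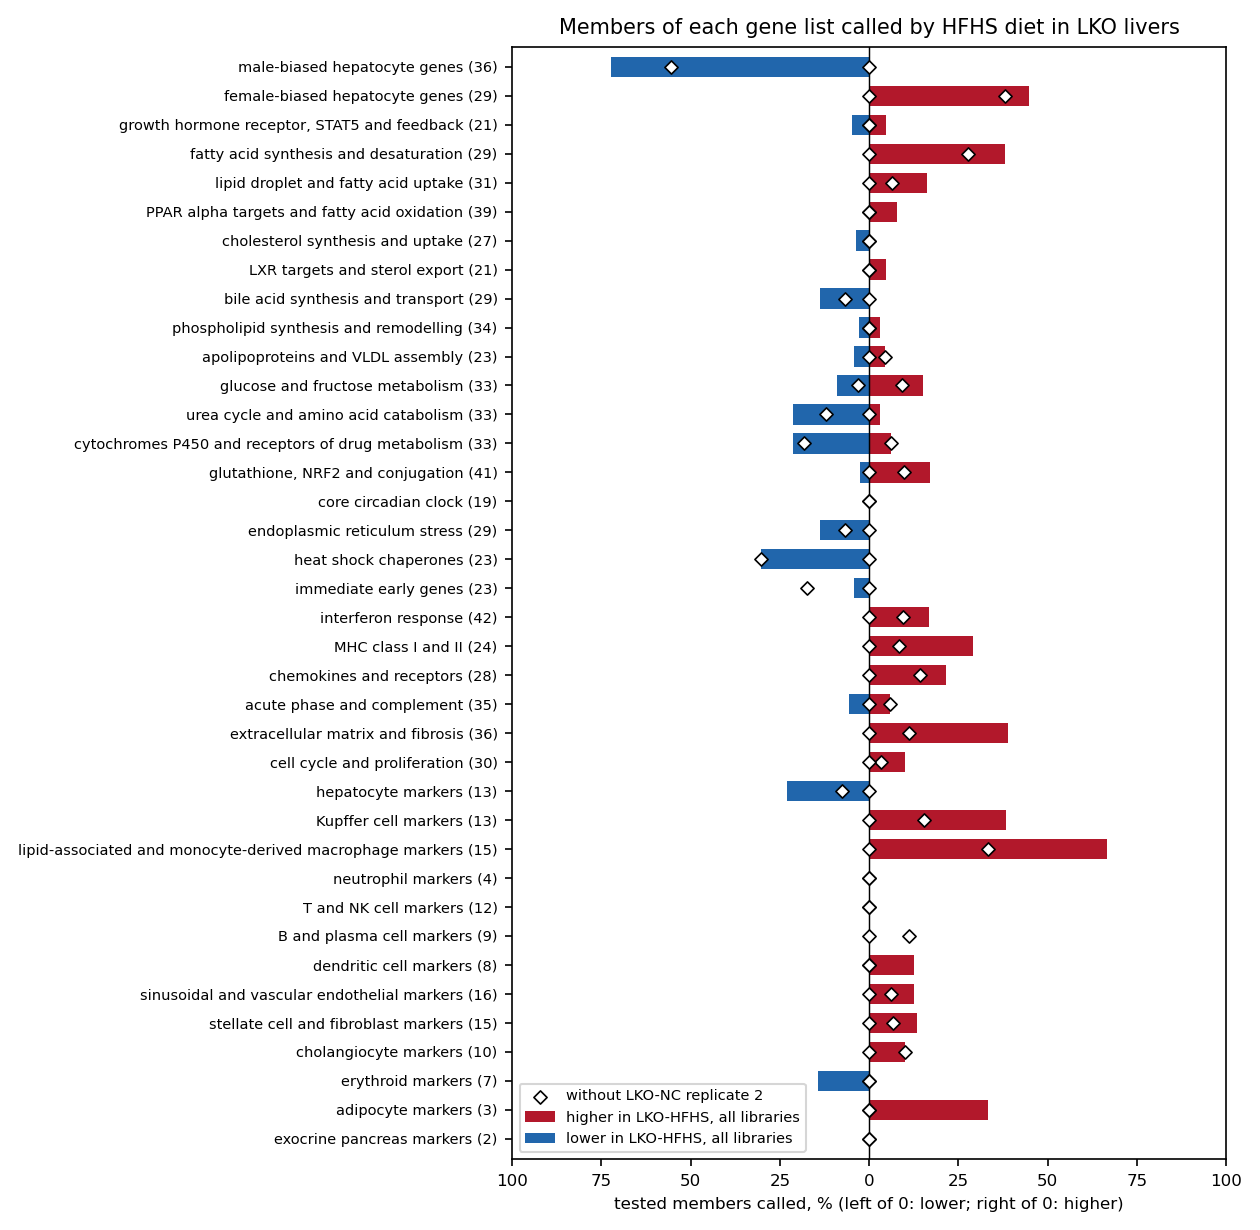
Share of the tested members of each gene list that were called by HFHS diet in LKO livers, higher to the right of 0 and lower to the left, in percent, with the number tested in brackets. Bars are the fit of all libraries and diamonds the fit without LKO-NC replicate 2. The longest bars are the male-biased genes (26 of 36 lower) and the macrophage markers (10 of 15 higher).

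Genes that adult male mice express more than females formed the largest block of falls. Of 36 such genes tested, 26 fell and 0 rose, with a median log2 fold change of -2.27 beside 0.05 over all tested genes, and 20 fell without LKO-NC replicate 2. The steroid dehydrogenase Hsd3b5 (mm10 chromosome 3, 98618634 to 98630252) was at 0.189, 0.15 and 0.328 CPM in LKO-HFHS livers, against 128, 241 and 233 CPM in LKO-NC livers. It was nearly silent in all 3 LKO-HFHS livers, with a log2 fold change of -9.78 ± 0.89 (SE, adjusted p 0.000245). Serpina1e, a member of the alpha-1 antitrypsin family, had 13.0, 25.2 and 16.4 CPM in LKO-HFHS livers, against 1553, 4967 and 4759 CPM in LKO-NC livers, a log2 fold change of -7.69 ± 0.71 (SE). Selenbp2, a selenium-binding protein, had 7.17, 7.14 and 6.73 CPM in LKO-HFHS livers, against 228, 398 and 362 CPM in LKO-NC livers. Slco1a1, an organic anion uptake transporter, stood at 5.4, 20.8 and 2.1 CPM in LKO-HFHS livers, against 362, 419.5 and 424 CPM in LKO-NC livers. The groups were far apart for each of these genes, and LKO-HFHS replicate 2 was the highest of its group for Serpina1e and Slco1a1.

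The other male-biased falls reached several functions. The fatty acid elongase Elovl3 fell by 3.87 on the log2 scale, the fatty acid hydroxylase Cyp4a12b by 2.98 and the cytochrome P450 Cyp2d9 by 1.98. Of the terminal complement genes on this list, C8b had 14.6, 25.3 and 12.9 CPM in LKO-HFHS livers, against 113, 206 and 214 CPM in LKO-NC livers, C8a changed by -1.93 ± 0.25 and C6 by -2.10 ± 0.29 (log2, SE). Egfr, the epidermal growth factor receptor, changed by -1.81 ± 0.31 (log2, SE). The 10 members that were not called included the major urinary protein gene Mup20, at -0.90 ± 0.55 (log2, SE, adjusted p 0.437), and Serpina12, at 0.25 ± 0.24 with an adjusted p of 0.668. In floxed livers the same list had 18 falls and 1 rise, where 1.31% of all tested genes were lower and 1.6% higher.

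The major urinary proteins are small secreted lipocalins that carry pheromones in the urine of male mice, and their genes lie in a cluster of near-identical copies on chromosome 4. Of 22 Mup genes in the files 21 were tested, of which 16 fell and 0 rose (13 without LKO-NC replicate 2), with log2 fold changes between -8.35 and -0.90. As a family they held 0.473%, 1.17% and 0.776% of all counts in LKO-HFHS livers, against 3.22%, 5.66% and 6.97% in LKO-NC livers. Mup7 (mm10 chromosome 4, 60066469 to 60070475, minus strand) had 35.9, 50.6 and 16.1 CPM in LKO-HFHS livers, against 4915, 11916 and 16731 CPM in LKO-NC livers. Mup17 had 745, 492 and 182 CPM in LKO-HFHS livers, against 7909, 8000 and 9583 CPM in LKO-NC livers, and Mup3 had 1268, 2605 and 1061 CPM in LKO-HFHS livers, against 8371, 12766 and 12035 CPM in LKO-NC livers. Mup3 kept the most expression on the diet of the 3 genes, and its log2 fold change of -2.75 ± 0.52 (SE) was the smallest of them, beside -4.17 ± 0.57 for Mup17 and -8.35 ± 1.32 for Mup7. The call of Mup3 was lost without LKO-HFHS 1 or 3 (adjusted p 0.0566 to 0.0743). Mup14, at -5.53 ± 0.997 (log2, SE), lost its call without LKO-HFHS 1 (adjusted p 0.0631) and with the block (adjusted p 0.0596). Reads may be divided unevenly among such copies, so that single members are less certain than the summed share. In floxed livers 4 Mup genes fell, and the summed share was 0.636%, 1.06% and 0.852% in FLOX-HFHS, against 0.656%, 2.02% and 4.08% in FLOX-NC.

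Genes that female mice express more formed the counterpart. Of 29 such genes tested, 13 rose and 0 fell, with a median log2 fold change of 2.06, and 11 rose without LKO-NC replicate 2. Slc22a27, an organic anion transporter, was at 13.4, 21.0 and 21.3 CPM in LKO-HFHS livers, against 0.818, 1.16 and 0.451 CPM in LKO-NC livers. Cyp2a4, a steroid hydroxylase, had 28.8, 39.2 and 26.5 CPM in LKO-HFHS livers, against 0.237, 0.735 and 1.37 CPM in LKO-NC livers. Cyp17a1, the steroid 17-alpha-hydroxylase that also makes sex steroid precursors, had 21.2, 41.5 and 23.2 CPM in LKO-HFHS livers, against 5.35, 0.893 and 1.33 CPM in LKO-NC livers, with the highest LKO-NC value in replicate 1. Their log2 fold changes were 4.53 ± 0.42, 5.30 ± 0.77 and 3.51 ± 0.61 (SE).

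Some of these genes had almost no reads on the control diet. Cyp2b9 (mm10 chromosome 7, 26173411 to 26210661), a cytochrome P450, had 47.8, 18.3 and 38.8 CPM in LKO-HFHS livers, against 0, 0 and 0 CPM in LKO-NC livers, where no read was counted. Set against a floor of 3 counts over the LKO-NC group it was at least 1460-fold higher, and its neighbour Cyp2b13 was at least 172-fold higher, bounds that cover counting error only. Ntrk2, the receptor for brain-derived neurotrophic factor, had 3.5, 6.62 and 3.81 CPM in LKO-HFHS livers, against 0.0791, 0 and 0 CPM in LKO-NC livers. Hao2, a hydroxyacid oxidase of peroxisomes, rose by 5.56 ± 0.94, the flavin monooxygenase Fmo2 by 2.30 ± 0.37 and the nuclear protein Tox by 1.89 ± 0.30 (log2, SE). Sult1e1, an estrogen sulfotransferase (the title of the series has slut1e1), had 0.308, 0.42 and 0.128 CPM in LKO-HFHS livers, against 0.211, 0 and 0 CPM in LKO-NC livers, which is near the detection limit, and a log2 fold change of 2.04 ± 1.39 (SE, adjusted p 0.499). Not every female-biased gene moved this way. Cyp2c69 had 0.118, 0.705 and 0.0998 CPM in LKO-HFHS livers, against 1.27, 1.65 and 3.93 CPM in LKO-NC livers, with an adjusted p of 0.11 (0.036 with the replicate block, 0.0485 without LKO-HFHS 2). In floxed livers the female-biased list had 9 rises and 1 fall, and its median log2 fold change was 0.62.

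**Figure D2:**
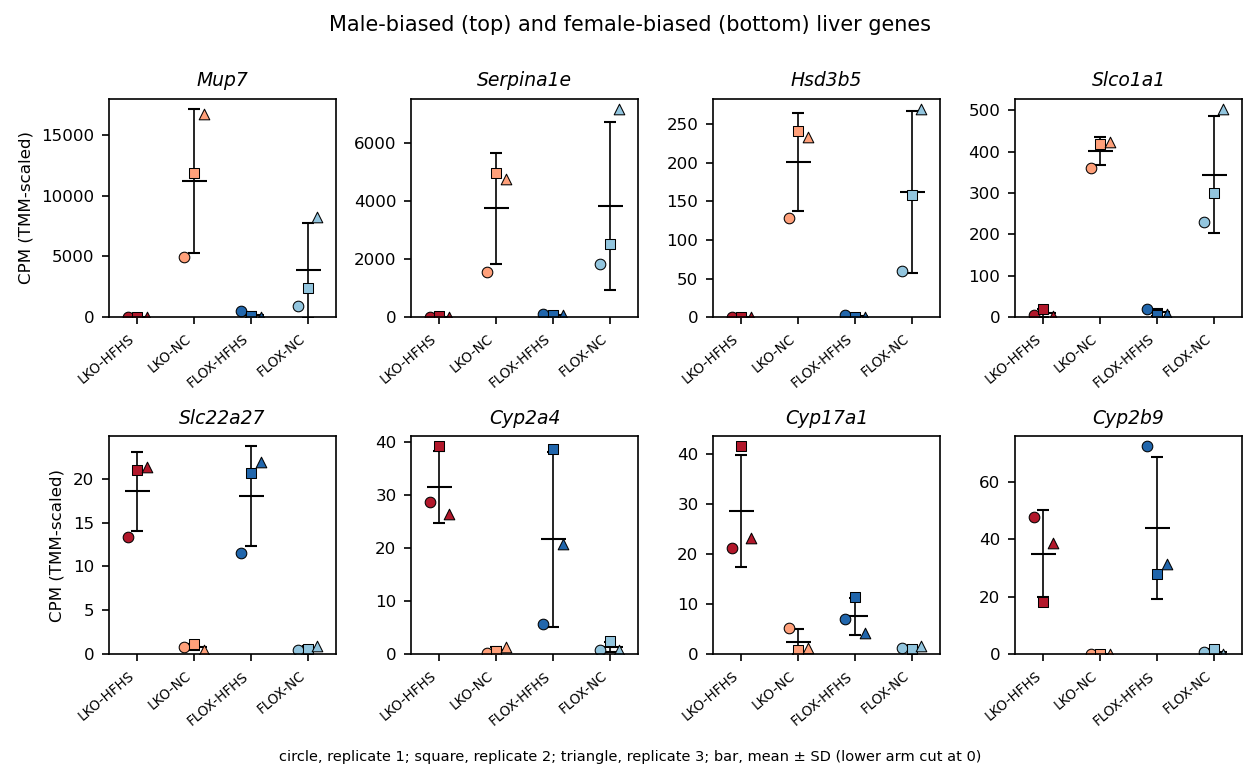
CPM per library of 4 male-biased genes (top) and 4 female-biased genes (bottom) in the 4 groups, with linear axes from 0. Points are libraries, with a marker shape for each replicate number, and bars are the mean ± SD of 3 libraries. The 3 LKO-HFHS points lie below all LKO-NC points in the top row and above them in the bottom row.

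The receptor and feedback genes of growth hormone signalling did not move as a block. Of 21 genes tested 1 rose, the leptin receptor Lepr (2.56 ± 0.58, log2, SE), and 1 fell, the hepatocyte transcription factor Hnf4a. Over all tested genes 2.25% were higher and 1.5% lower. Hnf4a had 229, 248 and 193 CPM in LKO-HFHS livers, against 442, 426 and 343 CPM in LKO-NC livers, a log2 fold change of -0.85 ± 0.20 (SE, adjusted p 0.0355). The call of Lepr was lost without LKO-HFHS 1, 2 or 3 or LKO-NC 2 or 3 (adjusted p 0.0623 to 0.123) and with the replicate block (0.0775), and that of Hnf4a without LKO-HFHS 1, 2 or 3 or LKO-NC 1 or 2 (adjusted p 0.0689 to 0.202). Without LKO-NC replicate 2 the list had 0 rises and 0 falls by edgeR, without a scaling factor 1 rise and 0 falls, and with the replicate block 0 rises and 4 falls. DESeq2 called 1 gene of the list higher and 6 lower. Igfals, which carries insulin-like growth factor in blood, was at -0.997 ± 0.26 and Bcl6, a repressor that opposes STAT5, at -1.96 ± 0.58 (log2, SE, adjusted p 0.056 and 0.0873). With the block Igfals had an adjusted p of 0.0278. Socs2, a feedback inhibitor that STAT5 induces, had 28.1, 49.8 and 15.4 CPM in LKO-HFHS livers, against 17.99, 14.4 and 27.6 CPM in LKO-NC livers, values that overlap. In floxed livers 1 gene of the list rose and 4 fell, with a median log2 fold change of -0.49, beside 0.31 in LKO livers.

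Outside the lists, the largest rises by fold among genes with a mean of at least 5 CPM in the higher group were of several kinds. These genes also passed without LKO-NC replicate 2 and have no clone or predicted name. Some called genes that missed these conditions had larger fold changes. Ly6d, a surface protein of the Ly6 family, had 82.8, 106 and 174 CPM in LKO-HFHS livers, against 1.4, 1.5 and 1.05 CPM in LKO-NC livers. The log2 fold change was 6.53 ± 0.89 (SE), and the spread among LKO-HFHS livers was small beside the gap to LKO-NC. H19, an imprinted noncoding RNA of fetal liver, had 5.35, 16.5 and 18.3 CPM in LKO-HFHS livers, against 0, 0 and 0.0721 CPM in LKO-NC livers. Ephb2, a receptor tyrosine kinase, had 3.29, 8.33 and 10.3 CPM in LKO-HFHS livers, against 0.132, 0.105 and 0.0721 CPM in LKO-NC livers, and Pls1, an actin-bundling plastin, had 3.86, 5.79 and 7.16 CPM in LKO-HFHS livers, against 0.264, 0.158 and 0 CPM in LKO-NC livers. LKO-HFHS replicate 1 was the lowest of its group for all 4 genes and still far above every LKO-NC library. In floxed livers Ly6d had 24.8, 116 and 109 CPM in FLOX-HFHS livers, against 0.199, 2.99 and 0.661 CPM in FLOX-NC livers, and Ephb2 had 2.13, 6.33 and 5.66 CPM in FLOX-HFHS livers, against 0.564, 0.44 and 0 CPM in FLOX-NC livers, in the same direction as in LKO livers.

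Of 29 genes of fatty acid synthesis and desaturation tested, 11 rose, 0 fell and 18 were not called, with a median log2 fold change of 1.16, and 8 rose without LKO-NC replicate 2. The count was 10, 7 and 7 without LKO-HFHS replicates 1, 2 and 3, and 8 and 6 without LKO-NC replicates 1 and 3. Thrsp, a nuclear protein of lipogenic cells, had 275, 775 and 366 CPM in LKO-HFHS livers, against 55.9, 77.0 and 28.6 CPM in LKO-NC livers. Pklr, the liver pyruvate kinase, had 364, 281 and 322 CPM in LKO-HFHS livers, against 88.4, 75.6 and 45.7 CPM in LKO-NC livers. Fasn, fatty acid synthase, had 251, 408 and 228 CPM in LKO-HFHS livers, against 68.3, 91.2 and 64.3 CPM in LKO-NC livers, and Acaca, acetyl-CoA carboxylase, had 122, 115 and 89.0 CPM in LKO-HFHS livers, against 25.7, 32.3 and 18.7 CPM in LKO-NC livers. Their log2 fold changes were 3.13 ± 0.44, 2.21 ± 0.25, 1.99 ± 0.39 and 2.09 ± 0.37 (SE). The call of Fasn was lost without LKO-HFHS 2 or LKO-NC 1 or 3 (adjusted p 0.0562 to 0.062). LKO-HFHS replicate 2 was the highest library for Thrsp and Fasn but the lowest of its group for Pklr.

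Other steps of the pathway followed in part. Acly, which makes cytosolic acetyl-CoA, and Me1, malic enzyme, rose by 2.10 ± 0.47 and 1.66 ± 0.41 (log2, SE). The call of Acly was lost without LKO-HFHS 2 or 3 or LKO-NC 1, 2 or 3 (adjusted p 0.0729 to 0.109) and that of Me1 without LKO-HFHS 2 or 3 or LKO-NC 1, 2 or 3 (adjusted p 0.0945 to 0.165). Scd1, the main stearoyl-CoA desaturase of liver, had 12276, 18136 and 11166 CPM in LKO-HFHS livers, against 5088, 2630 and 1113 CPM in LKO-NC livers. Its 3 LKO-HFHS values were all above those of LKO-NC, which spread widely, and the log2 fold change of 2.23 ± 0.62 (SE) had an adjusted p of 0.0696 (0.0289 with the replicate block). The transcription factors that drive these enzymes were not called, Srebf1 at 0.32 ± 0.28 and Mlxipl at -0.58 ± 0.57 (log2, SE, adjusted p 0.634 and 0.678). In floxed livers 10 genes of the list rose and 0 fell, and the median was 1.07.

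Of 33 genes of sugar handling tested, 5 rose and 3 fell (3 and 1 without LKO-NC replicate 2, 4 and 0 without a scaling factor). The list median was 0.25 (log2), and 0.54 without scaling. Among the rises was Tkfc, the triokinase of fructose breakdown, with 449, 261 and 365 CPM in LKO-HFHS livers, against 147, 154 and 105 CPM in LKO-NC livers. Pgd, of the pentose phosphate pathway, had 51.7, 52.3 and 51.6 CPM in LKO-HFHS livers, against 14.6, 15.7 and 17.3 CPM in LKO-NC livers, with little spread in either group. The falls were led by G6pc, glucose-6-phosphatase, with 66.0, 71.5 and 76.0 CPM in LKO-HFHS livers, against 171, 147 and 268 CPM in LKO-NC livers. Pck1, the committed enzyme of gluconeogenesis, had 567, 794 and 639.9 CPM in LKO-HFHS livers, against 1610, 1436 and 1607 CPM in LKO-NC livers, a log2 fold change of -1.22 ± 0.25 (SE, adjusted p 0.0171). The call of Tkfc was lost without LKO-HFHS 1 or 3 or LKO-NC 3 (adjusted p 0.0538 to 0.0558) and that of Pck1 without LKO-HFHS 1 or 3 or LKO-NC 1, 2 or 3 (adjusted p 0.0516 to 0.0987). Counts of this list without 1 library ran from 3 (without LKO-HFHS replicate 1 or 3) to 6 (without LKO-HFHS replicate 2). They were 4 without each LKO-NC replicate. In floxed livers 6 rose and 1 fell.

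Lipid droplet and uptake genes rose in smaller number. Of 31 tested, 5 rose and 0 fell, and 2 rose without LKO-NC replicate 2. Cidec, a protein that enlarges lipid droplets, had 45.8, 71.1 and 84.8 CPM in LKO-HFHS livers, against 7.99, 2.73 and 5.57 CPM in LKO-NC livers, and the fatty acid transporter Cd36 had 188, 235 and 253 CPM in LKO-HFHS livers, against 69.7, 55.8 and 46.4 CPM in LKO-NC livers. The diets were clearly apart, with log2 fold changes of 3.63 ± 0.47 and 1.97 ± 0.30 (SE). Mogat1, an acyltransferase of triglyceride synthesis, rose by 2.59 ± 0.58, the droplet coat protein Plin3 by 1.33 ± 0.31 and the fatty acid binding protein Fabp4 by 1.88 ± 0.45 (log2, SE). The call of Mogat1 was lost without any 1 of the 6 LKO libraries (adjusted p 0.0608 to 0.105), that of Plin3 without LKO-HFHS 2 or 3 or LKO-NC 1, 2 or 3 (adjusted p 0.0687 to 0.158) and that of Fabp4 without LKO-HFHS 1, 2 or 3 or LKO-NC 1 or 2 (adjusted p 0.0597 to 0.139). The count of the list was 2 or 3 without any 1 of the 6 LKO libraries. Apoa4, an apolipoprotein secreted with triglyceride, had 4307, 6853 and 8310 CPM in LKO-HFHS livers, against 394, 228 and 945 CPM in LKO-NC livers, the largest gain in CPM of the genes taken by the rule on size. Of the 23 apolipoprotein and VLDL genes it alone rose, and Lcat, which esterifies cholesterol in plasma, fell by 0.77 on the log2 scale, a call lost without any 1 of the 6 LKO libraries (adjusted p 0.0735 to 0.225). The list had 1 rise and 0 falls without LKO-NC replicate 2 or without a scaling factor. In the main fit 2.25% of all tested genes were higher and 1.5% lower.

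Fatty acid oxidation, sterol and phospholipid genes gave few calls. Of 39 PPAR alpha targets and oxidation genes 3 rose and 0 fell, with a median of 0.02 (log2), beside 2.25% of all tested genes that were higher. The 3 were Pdk4, the kinase that shuts pyruvate dehydrogenase, and the acyl-CoA thioesterases Acot2 and Acot3. Pdk4 had 21.6, 18.2 and 20.2 CPM in LKO-HFHS livers, against 4.51, 4.54 and 8.2 CPM in LKO-NC livers, and Acot3 had 30.8, 44.1 and 24.8 CPM in LKO-HFHS livers, against 7.57, 8.35 and 4.67 CPM in LKO-NC livers. The call of Pdk4 was lost without LKO-HFHS 1, 2 or 3 or LKO-NC 1 or 2 (adjusted p 0.0785 to 0.167), that of Acot2 without LKO-HFHS 1, 2 or 3 or LKO-NC 2 or 3 (adjusted p 0.0612 to 0.149) and that of Acot3 without any 1 of the 6 LKO libraries (adjusted p 0.0866 to 0.139). Of 27 cholesterol synthesis and uptake genes 0 rose and 1 fell, the sterol isomerase Ebp (-1.05 ± 0.24, log2, SE), and of 21 LXR targets and sterol export genes 1 rose, the exporter Abcg1 (1.50 ± 0.34). In the cholesterol list 21 log2 fold changes were negative and 6 positive, with a median of -0.40 (-0.10 without scaling). The median was 0.32 in the LXR list and -0.14 in the phospholipid list. Of 34 genes of phospholipid synthesis and remodelling, the pathway of Lpcat3 itself, 1 rose and 1 fell. They were Pla2g7, a phospholipase secreted by macrophages (2.02 ± 0.43), and Ahcy, of the methionine cycle that feeds methyl groups to phosphatidylcholine (-1.28 ± 0.29, log2, SE). The calls of Ebp, Abcg1, Pla2g7 and Ahcy were lost without any 1 of the 6 LKO libraries (adjusted p 0.0547 to 0.186), without LKO-HFHS 2 or 3 or LKO-NC 1 or 2 (adjusted p 0.0866 to 0.119), without LKO-HFHS 1 or 3 or LKO-NC 1 or 2 (adjusted p 0.0551 to 0.107) and without LKO-HFHS 1 or 3 or LKO-NC 1, 2 or 3 (adjusted p 0.0709 to 0.139), in that order. The counts of all 4 lists were 0 by edgeR without LKO-NC replicate 2, and with the replicate block the cholesterol list had 1 rise and 4 falls and the LXR list 2 rises and 1 fall. Without a scaling factor the cholesterol and phospholipid lists had 0 falls by edgeR, and the LXR list 2 rises.

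Of 29 bile acid enzymes and transporters tested 4 fell and 0 rose (2 without LKO-NC replicate 2 or without a scaling factor, 8 with the replicate block). Cyp7b1, the oxysterol hydroxylase of the alternative route, had 17.1, 24.9 and 16.8 CPM in LKO-HFHS livers, against 141, 275 and 328 CPM in LKO-NC livers. With Slco1a1 it stands on the male-biased list as well. The other 2, Cyp2c70, which makes muricholic acids in mice, and Hsd3b7, an early enzyme of the pathway, changed by -2.04 ± 0.48 and -0.78 ± 0.19 (log2, SE). Their calls were lost without LKO-HFHS 1 or 3 or LKO-NC 2 or 3 (adjusted p 0.0992 to 0.151) and without any 1 of the 6 LKO libraries (adjusted p 0.0799 to 0.18), in that order. The count of the list was also 2 without LKO-HFHS 1 or 3. Cyp7a1, the rate-limiting enzyme of the classical route, had 14.4, 13.5 and 14.8 CPM in LKO-HFHS livers, against 8.12, 7.27 and 7.68 CPM in LKO-NC livers, a log2 fold change of 0.89 ± 0.35 (SE) with an adjusted p of 0.196.

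Of 33 genes of the urea cycle and amino acid catabolism 7 fell and 1 rose (4 and 0 without LKO-NC replicate 2, 12 and 1 with the replicate block, 3 and 1 without a scaling factor). The list median was -0.54 (log2), and -0.24 without scaling. Of the 13 hepatocyte markers tested 12 had negative log2 fold changes, with a median of -0.85 (-0.59 without scaling), and 3 fell (1 without LKO-NC replicate 2 or without scaling). Their part in the falls of this list and of the bile acid and P450 lists was not tested. Tat, which starts the breakdown of tyrosine, had 124, 231 and 136 CPM in LKO-HFHS livers, against 712, 679 and 775 CPM in LKO-NC livers. Agxt, which detoxifies glyoxylate, had 22.4, 48.6 and 36.2 CPM in LKO-HFHS livers, against 176, 215 and 171 CPM in LKO-NC livers, and Hal, which starts the breakdown of histidine, had 40.4, 55.2 and 31.2 CPM in LKO-HFHS livers, against 145, 189.6 and 183 CPM in LKO-NC livers. Cbs, of the route from homocysteine to cysteine, had 62.4, 72.3 and 56.5 CPM in LKO-HFHS livers, against 148, 165 and 167 CPM in LKO-NC livers. The groups were clearly separate for all 4, with log2 fold changes of -2.14 ± 0.25, -2.39 ± 0.40, -2.03 ± 0.37 and -1.33 ± 0.22 (SE). The call of Hal was lost without LKO-HFHS 3 (adjusted p 0.0622). The single rise was Psat1, of serine synthesis, from a very low level (3.88, 3.11 and 3.35 CPM in LKO-HFHS, against 0.0791, 0.236 and 0.216 CPM in LKO-NC). Its call was lost without LKO-HFHS 1 or 3 or LKO-NC 1, 2 or 3 (adjusted p 0.0582 to 0.0892). Of the urea cycle itself, Cps1, its entry enzyme, was at -1.11 ± 0.33 (log2, SE, adjusted p 0.086, 0.048 with the replicate block and 0.0468 without LKO-HFHS 2). The list had 4 falls without LKO-HFHS 1 and 3 without LKO-HFHS 3. In floxed livers 3 fell and 2 rose.

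Of 33 cytochromes P450 and receptors of drug metabolism tested, 7 fell, 2 rose and 24 were not called (6 and 2 called without LKO-NC replicate 2). The list median was -0.48 (log2), and -0.19 without scaling. Cyp2c54 had 38.7, 32.7 and 14.0 CPM in LKO-HFHS livers, against 411, 567 and 441 CPM in LKO-NC livers, and Cyp2c37 had 112, 137 and 115 CPM in LKO-HFHS livers, against 467, 617 and 582 CPM in LKO-NC livers. Cyp1a2, which metabolizes caffeine, had 195, 64.4 and 60.6 CPM in LKO-HFHS livers, against 518, 715 and 569 CPM in LKO-NC livers, with LKO-HFHS replicate 1 the highest of its group. The 2 rises were Cyp2c38, with 51.3, 66.7 and 62.7 CPM in LKO-HFHS livers, against 13.7, 17.0 and 11.4 CPM in LKO-NC livers, and Cyp2a22, with 40.3, 8.82 and 33.0 CPM in LKO-HFHS livers, against 2.24, 1.1 and 1.17 CPM in LKO-NC livers. These belong to families of close copies, so that reads could be divided among them. In floxed livers the list also had 7 falls and 2 rises. The count was 6 without LKO-HFHS 3.

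Of 41 conjugation and glutathione genes tested 7 rose and 1 fell (4 and 0 without LKO-NC replicate 2 or 3, 4 and 1 without LKO-NC replicate 1 or LKO-HFHS replicate 2, 3 and 0 without LKO-HFHS replicate 3, 5 and 0 without a scaling factor). The glutathione transferase Gstm3 had 90.7, 81.2 and 75.4 CPM in LKO-HFHS livers, against 9.81, 8.8 and 15.6 CPM in LKO-NC livers, and Gsta1 had 36.7, 26.4 and 31.9 CPM in LKO-HFHS livers, against 4.17, 10.6 and 8.13 CPM in LKO-NC livers. Nqo1, a quinone reductase under NRF2, rose by 1.39 ± 0.32 and the microsomal transferase Mgst3 by 1.24 ± 0.23 (log2, SE). The fall was Ugt2b1, a glucuronosyltransferase, at -1.89 ± 0.43 (log2, SE). The calls of Nqo1, Mgst3 and Ugt2b1 were lost without any 1 of the 6 LKO libraries (adjusted p 0.0577 to 0.129), without LKO-HFHS 3 or LKO-NC 3 (adjusted p 0.0519 to 0.0628) and without LKO-HFHS 1 or 3 or LKO-NC 2 or 3 (adjusted p 0.0796 to 0.146), in that order. In floxed livers 10 genes of the list rose and 1 fell.

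In the acute phase and complement list 2 of 35 genes rose and 2 fell (2 and 0 without LKO-NC replicate 2, 3 and 0 without a scaling factor). Over all tested genes 2.25% were higher and 1.5% lower (0.895% and 0.699% without LKO-NC replicate 2). Lcn2, an iron-carrier binding protein of the acute phase, had 25.2, 26.6 and 54.7 CPM in LKO-HFHS livers, against 3.32, 2.34 and 1.8 CPM in LKO-NC livers, and Il1rn, the natural antagonist of interleukin-1, had 6.09, 6.39 and 7.62 CPM in LKO-HFHS livers, against 0.686, 0.866 and 0.667 CPM in LKO-NC livers. The falls were Serpina3k, of the antichymotrypsin family, at -2.37 ± 0.51, and the complement subunit C9, at -1.53 ± 0.33 (log2, SE). They were lost without LKO-HFHS 1 or 3 or LKO-NC 2 or 3 (adjusted p 0.0647 to 0.121) and without LKO-HFHS 1 or 3 or LKO-NC 2 or 3 (adjusted p 0.0642 to 0.118), in that order.

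**Figure D3:**
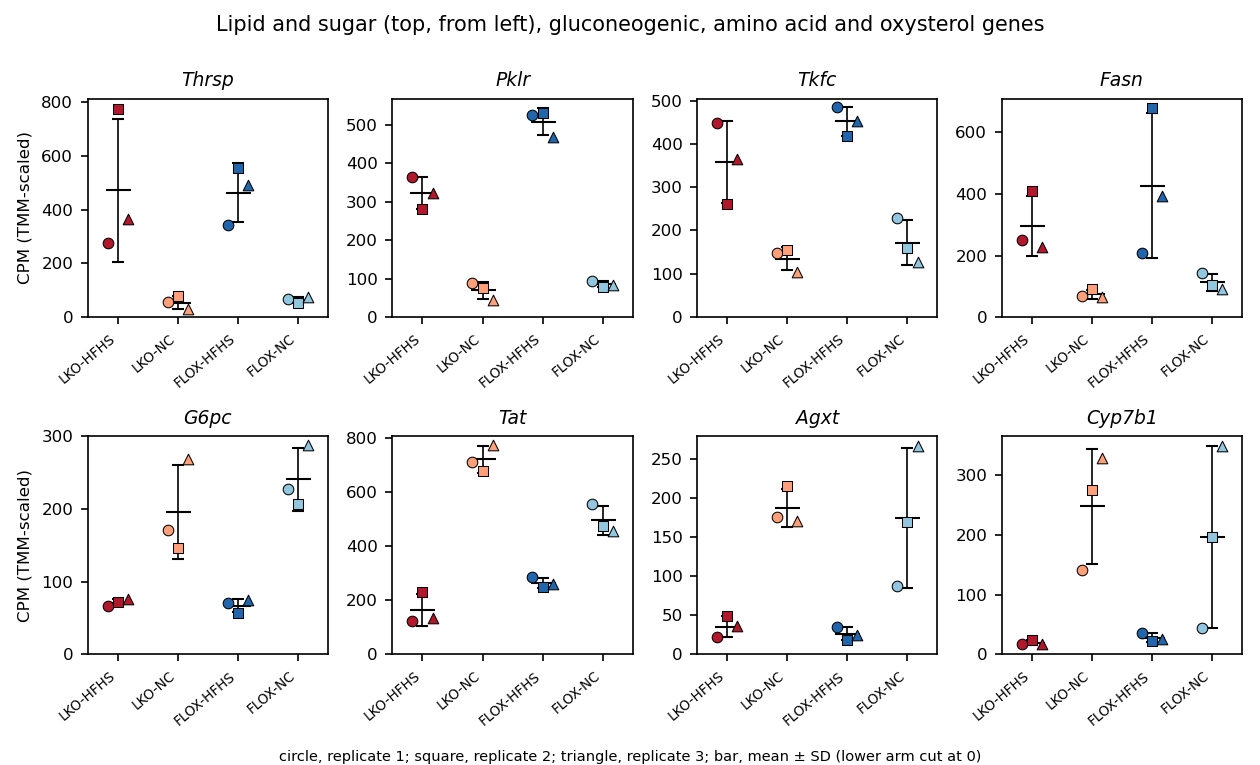
CPM per library of Thrsp, Pklr, Tkfc and Fasn (top) and of G6pc, Tat, Agxt and Cyp7b1 (bottom) in the 4 groups, with linear axes from 0. Points are libraries and bars the mean ± SD of 3 libraries. LKO-HFHS points lie above LKO-NC points in the top row and below them in the bottom row.

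Of 23 chaperones of the heat shock response 7 fell, 0 rose and 16 were not called, with 22 negative log2 fold changes and a median of -0.44. Without LKO-NC replicate 2 the count was 7, and without a scaling factor it was 4, with a median of -0.17. It was 4, 5 and 4 without LKO-HFHS replicates 1, 2 and 3, and 5 and 5 without LKO-NC replicates 1 and 3. The inducible chaperone Hspa1b had 23.3, 16.0 and 29.0 CPM in LKO-HFHS livers, against 96.7, 82.3 and 144 CPM in LKO-NC livers, and its near-identical neighbour Hspa1a had 0.947, 1.44 and 2.37 CPM in LKO-HFHS livers, against 8.73, 10.3 and 21.4 CPM in LKO-NC livers, so reads of the pair may be divided unevenly. Bag3, a co-chaperone of selective autophagy, had 14.3, 14.8 and 15.8 CPM in LKO-HFHS livers, against 40.2, 37.5 and 42.7 CPM in LKO-NC livers, and Dnajb4 had 21.4, 29.2 and 25.3 CPM in LKO-HFHS livers, against 62.8, 58.97 and 66.7 CPM in LKO-NC livers. Dnajb1 had 22.8, 26.5 and 24.6 CPM in LKO-HFHS livers, against 87.4, 53.7 and 358 CPM in LKO-NC livers. Here LKO-NC replicate 3 stood far above all other libraries, and the call was lost without LKO-HFHS 1 or 3 (adjusted p 0.0667 to 0.0729) and with the replicate block (adjusted p 0.0586). In floxed livers Hspa1b had 20.7, 24.1 and 19.9 CPM in FLOX-HFHS livers, against 33.4, 30.0 and 18.1 CPM in FLOX-NC livers, which is the range of the LKO-HFHS livers or near it. The median log2 fold change of the list was 0.08 in floxed livers.

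The same LKO-NC library was high in immediate early genes, which respond to stimuli within minutes. Egr1 had 5.35, 3.05 and 7.9 CPM in LKO-HFHS livers, against 38.2, 4.67 and 252 CPM in LKO-NC livers, and Junb had 13.0, 10.7 and 14.5 CPM in LKO-HFHS livers, against 43.8, 16.3 and 69.6 CPM in LKO-NC livers. Of 23 genes tested 1 fell, Junb (-1.76 ± 0.43, log2, SE, adjusted p 0.0391), and 0 did by edgeR without a scaling factor. Over all tested genes 1.5% were lower. The call of Junb was lost without LKO-HFHS 1, 2 or 3 or LKO-NC 1 or 3 (adjusted p 0.0903 to 0.133). Egr1 passed only without LKO-NC replicate 2 (adjusted p 0.00788). Without LKO-NC replicate 2 the list had 4 falls, and without LKO-NC replicate 3 it had 0 falls and 1 rise by edgeR. What set LKO-NC replicate 3 apart was not tested.

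Of 29 genes of endoplasmic reticulum stress 4 fell and 0 rose, with 25 negative log2 fold changes and a median of -0.49 (2 without LKO-NC replicate 2, 9 with the replicate block). Sdf2l1, a chaperone component of the reticulum, had 11.6, 13.1 and 14.2 CPM in LKO-HFHS livers, against 46.9, 47.8 and 36.1 CPM in LKO-NC livers. Creld2, another secretory pathway protein, had 16.7, 14.7 and 23.3 CPM in LKO-HFHS livers, against 70.1, 42.5 and 40.1 CPM in LKO-NC livers, and Herpud1, of the degradation complex, had 100.2, 163 and 183 CPM in LKO-HFHS livers, against 283, 367 and 313 CPM in LKO-NC livers. Ppp1r15a, which restores translation after stress, had 5.19, 5.84 and 6.2 CPM in LKO-HFHS livers, against 14.2, 15.5 and 13.0 CPM in LKO-NC livers. The groups did not overlap, as for every called gene and 29.9% of all tested genes, and the highest LKO-NC value of Creld2 was in replicate 1. The calls of Sdf2l1, Creld2 and Herpud1 were lost without LKO-HFHS 1, 2 or 3 or LKO-NC 1 or 2 (adjusted p 0.054 to 0.0795), without LKO-HFHS 1 or 2 or LKO-NC 1 (adjusted p 0.0742 to 0.0758) and without any 1 of the 6 LKO libraries (adjusted p 0.0779 to 0.168), in that order. The count was 1 without LKO-HFHS replicate 1 or 2 or LKO-NC replicate 1, 2 without LKO-HFHS replicate 3, and 0 without a scaling factor, where the list median was -0.19.

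Many genes of this pathway are known to carry the endoplasmic reticulum stress element in their promoters. The element, searched on both strands as CCAAT, any 9 bases and CCACG, was in 0.119% of the 32851 RefSeq promoters of GRCm38.p6 (250 bases before to 50 after the start) and in those of 9 of the 26 tested members with a promoter. Of the 4 that fell, only Creld2 holds it. Its promoter is shown for that reason, 5′ to 3′ on the plus strand at chr15:88819396-88819695, with the match, on the minus strand, in capitals.
Creld2: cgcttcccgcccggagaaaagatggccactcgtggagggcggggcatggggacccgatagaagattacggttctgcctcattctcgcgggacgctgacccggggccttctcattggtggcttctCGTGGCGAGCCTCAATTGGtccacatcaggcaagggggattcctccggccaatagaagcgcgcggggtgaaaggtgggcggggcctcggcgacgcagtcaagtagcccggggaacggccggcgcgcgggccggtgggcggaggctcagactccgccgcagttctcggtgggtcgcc
The heat shock element, searched as GAA, TTC and GAA with any 2 bases between them, was in 0.603% of promoters, in those of 4 of 18 tested chaperone genes with a promoter and in 0 of the 7 that fell. A match is a description of the letters, and their absence says only that they are not in this window.

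Of 15 markers of lipid-associated and monocyte-derived macrophages 10 rose and 0 fell, with a median log2 fold change of 3.19 (the same with Gpnmb, which has no reads in LKO-NC, at its lower bound), and 5 rose without LKO-NC replicate 2 (6 without LKO-HFHS replicate 3). Their summed level was 345 to 544 CPM in LKO-HFHS and 92.1 to 134 CPM in LKO-NC. Cd63, a tetraspanin of lysosomes, had 73.5, 47.8 and 95.9 CPM in LKO-HFHS livers, against 3.64, 2.78 and 5.72 CPM in LKO-NC livers, and Clec7a, a receptor for fungal glucan, had 10.3, 9.54 and 14.8 CPM in LKO-HFHS livers, against 0.791, 1.55 and 1.6 CPM in LKO-NC livers. The macrophage elastase Mmp12 had 5.21, 8.57 and 13.0 CPM in LKO-HFHS livers, against 0.29, 0.105 and 0 CPM in LKO-NC livers. Trem2, the lipid receptor that defines these cells, had 3.88, 2.75 and 4.71 CPM in LKO-HFHS livers, against 0, 0.263 and 0.162 CPM in LKO-NC livers, and Gpnmb, with 0 counts in LKO-NC, was at least 185-fold higher over a floor of 3 counts. Trem2 lost its call without any 1 of the 6 LKO libraries (adjusted p 0.0777 to 0.131), and Gpnmb without LKO-HFHS 3 or LKO-NC 2 (adjusted p 0.0515 to 0.0516). LKO-HFHS replicate 3 was the highest library for Cd63, Clec7a, Mmp12 and Trem2.

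Markers of Kupffer cells, the resident macrophages of the liver, were also higher in sum. The 13 markers had 277 to 314 CPM in LKO-HFHS and 138 to 178 CPM in LKO-NC, with 10 positive and 3 negative log2 fold changes. Of the 13 markers 5 rose (2 without LKO-NC replicate 1 or 2 or LKO-HFHS replicate 3, 3 without LKO-HFHS replicate 1 or 2), among them the complement subunits C1qa, with 48.4, 33.1 and 42.8 CPM in LKO-HFHS livers, against 14.6, 11.2 and 17.2 CPM in LKO-NC livers, and C1qb. Clec4f, which defines Kupffer cells, had 39.7, 40.3 and 44.2 CPM in LKO-HFHS livers, against 17.6, 13.2 and 22.3 CPM in LKO-NC livers, and an adjusted p of 0.0793. C1q genes are made by other macrophages as well, and which cells gave the higher levels was not tested.

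Of 24 MHC genes 7 rose and 0 fell (2 without LKO-NC replicate 2), 6 of them in class II or its processing: H2-Aa had 41.4, 35.8 and 54.7 CPM in LKO-HFHS livers, against 11.2, 6.8 and 12.4 CPM in LKO-NC livers, and Cd74, the invariant chain, had 53.7, 35.4 and 66.5 CPM in LKO-HFHS livers, against 14.5, 10.3 and 15.6 CPM in LKO-NC livers. The call of Cd74 was lost without LKO-HFHS 1 or 3 or LKO-NC 1, 2 or 3 (adjusted p 0.0565 to 0.113). Of 28 chemokine and receptor genes 6 rose (4 without LKO-NC replicate 2). Ccr2, the receptor that draws monocytes from blood, had 5.56, 2.57 and 5.35 CPM in LKO-HFHS livers, against 0.0791, 0.735 and 0.325 CPM in LKO-NC livers, and the scavenger chemokine Cxcl16 had 9.68, 7.65 and 6.12 CPM in LKO-HFHS livers, against 2.61, 2.13 and 2.43 CPM in LKO-NC livers. The MHC count was 2 without LKO-HFHS replicate 3 or LKO-NC replicate 1, and the chemokine count 3 without LKO-HFHS replicate 1 or 3 or LKO-NC replicate 1. The part of macrophage number in these results was not tested.

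Of 42 interferon response genes 7 rose and 0 fell, with 38 positive log2 fold changes and a median of 0.91 (4 without LKO-NC replicate 2, 11 with the replicate block or without a scaling factor). Levels were low: Ifi44 had 3.88, 3.44 and 4.15 CPM in LKO-HFHS livers, against 0.659, 0.998 and 0.469 CPM in LKO-NC livers, and Ifit2, an RNA-binding antiviral protein, had 5.04, 4.61 and 5.46 CPM in LKO-HFHS livers, against 0.317, 0.84 and 1.08 CPM in LKO-NC livers. Usp18, which removes the ubiquitin-like ISG15, had 6.13, 9.87 and 13.3 CPM in LKO-HFHS livers, against 0.923, 3.36 and 1.26 CPM in LKO-NC livers. Gbp3, a guanylate-binding protein, had 8.19, 7.68 and 5.75 CPM in LKO-HFHS livers, against 2.14, 1.1 and 1.55 CPM in LKO-NC livers. Ddx58, the RNA sensor RIG-I, had 11.0, 10.1 and 11.4 CPM in LKO-HFHS livers, against 6.46, 5.25 and 4.87 CPM in LKO-NC livers. The groups did not overlap for any of the 5, as for every called gene and 29.9% of all tested genes. The calls of Usp18 and Ddx58 were lost without LKO-HFHS 3 or LKO-NC 3 (adjusted p 0.0508 to 0.0575) and without LKO-HFHS 1 or 3 or LKO-NC 2 or 3 (adjusted p 0.0522 to 0.0768), in that order. The count was 3 without LKO-HFHS replicate 3 and 3 without LKO-NC replicate 3.

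The interferon-stimulated response element, searched on both strands as GAAA, any 2 bases and GAAA, was in 3.44% of the 32851 promoters. It was in those of 23 of the 31 tested members of the list with a promoter, and in 4 of the 6 risen members with one, Gbp3, Ddx58, Ifit3 and Igtp. The calls of Ifit3 and Igtp were lost without LKO-HFHS 2 or 3 or LKO-NC 2 or 3 (adjusted p 0.0545 to 0.0971) and without any 1 of the 6 LKO libraries (adjusted p 0.0748 to 0.18), in that order. The element was not found in the windows of Ifi44 and Ifit2. The 2 promoters of smallest p with a match are shown, with the matches, all on the strand opposite to the printed one, in capitals. Gbp3 lies at chr3:142559794-142560093 on the plus strand, and Ddx58 at chr4:40239776-40240075 on the minus strand.
Gbp3: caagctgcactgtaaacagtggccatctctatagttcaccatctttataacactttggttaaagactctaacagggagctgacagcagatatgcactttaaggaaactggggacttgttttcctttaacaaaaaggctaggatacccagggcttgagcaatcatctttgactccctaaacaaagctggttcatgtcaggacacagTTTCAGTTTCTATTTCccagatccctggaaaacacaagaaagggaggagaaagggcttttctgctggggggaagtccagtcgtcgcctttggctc
Ddx58: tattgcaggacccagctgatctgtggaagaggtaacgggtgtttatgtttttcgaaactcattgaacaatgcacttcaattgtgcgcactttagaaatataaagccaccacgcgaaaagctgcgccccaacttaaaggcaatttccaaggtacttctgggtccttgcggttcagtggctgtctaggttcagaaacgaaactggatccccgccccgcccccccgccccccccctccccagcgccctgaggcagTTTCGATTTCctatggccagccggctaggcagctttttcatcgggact
In Gbp3 the capitals hold 2 overlapping matches that begin 45 and 39 bases before the start, and in Ddx58 the match begins 2 bases after it.

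Matrix genes rose in number but not evenly across libraries. Of 36 tested 14 rose and 0 fell, with a median log2 fold change of 1.85, and 4 rose without LKO-NC replicate 2. The count was 4, 10 and 3 without LKO-HFHS replicates 1, 2 and 3, and 5 and 19 without LKO-NC replicates 1 and 3. Col1a1, the main chain of fibrillar collagen, had 16.7, 6.77 and 13.6 CPM in LKO-HFHS livers, against 1.002, 0.473 and 2.61 CPM in LKO-NC livers. Col3a1 had 79.5, 53.8 and 85.8 CPM in LKO-HFHS livers, against 12.4, 6.14 and 24.0 CPM in LKO-NC livers, and Col6a3 had 19.2, 14.4 and 14.9 CPM in LKO-HFHS livers, against 3.19, 1.23 and 3.71 CPM in LKO-NC livers. Spp1, osteopontin, had 189, 154 and 208 CPM in LKO-HFHS livers, against 29.6, 32.6 and 30.2 CPM in LKO-NC livers. Col1a1 and Col3a1 were lowest in replicate 2 of both diets. The calls of Col1a1 and Col3a1 were lost without LKO-HFHS 1 or 3 or LKO-NC 1 or 2 (adjusted p 0.064 to 0.0843) and without LKO-HFHS 1, 2 or 3 or LKO-NC 1 or 2 (adjusted p 0.0655 to 0.148), in that order, and with the replicate block (0.0527 and 0.106). Summed markers of stellate cells and fibroblasts were 327 to 374 CPM in LKO-HFHS and 124 to 259 CPM in LKO-NC. Of those 15 markers 2 rose, Pdgfrb (1.78 ± 0.38) and Hand2 (1.43 ± 0.31, log2, SE), 1 without LKO-NC replicate 2 and 6 with the replicate block or without LKO-NC replicate 3. Pdgfrb lost its call without LKO-HFHS 1 or 3 or LKO-NC 2 (adjusted p 0.0626 to 0.0747), and Hand2 without LKO-HFHS 1, 2 or 3 or LKO-NC 1 or 3 (adjusted p 0.0659 to 0.0915). In floxed livers 6 matrix genes rose. Acta2, which marks activated stellate cells, had 1.75, 0.78 and 2.65 CPM in LKO-HFHS livers, against 3.22, 2.52 and 10.4 CPM in LKO-NC livers. The part of stellate cell number in the matrix result was not tested.

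**Figure D4:**
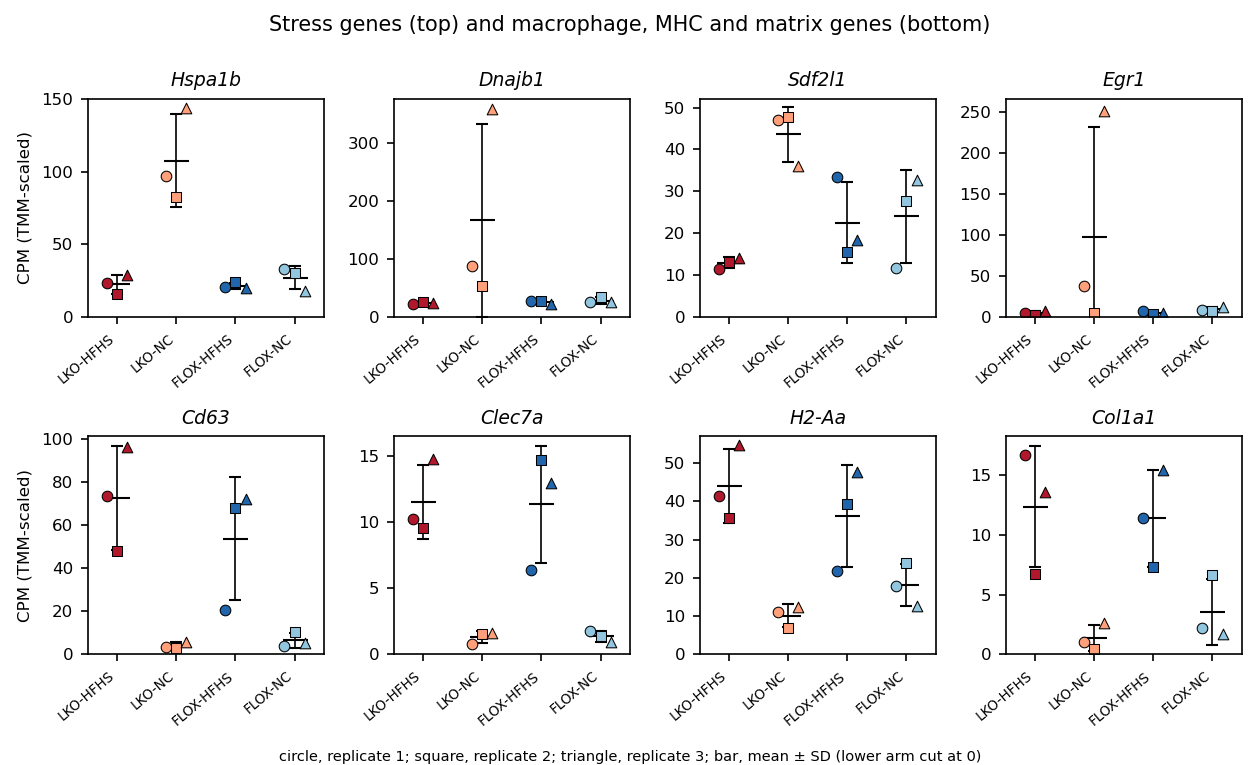
CPM per library of stress genes (top) and of macrophage, MHC and collagen genes (bottom) in the 4 groups, with linear axes from 0. Points are libraries and bars the mean ± SD of 3 libraries. In the top row the LKO-NC group holds the highest libraries, with replicate 3 at 358 CPM for Dnajb1 and 252 CPM for Egr1, and in the bottom row the LKO-HFHS points lie above those of LKO-NC.

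Markers of other cell types gave few calls, beside 2.25% of all tested genes that were higher and 1.5% that were lower. Of 16 endothelial markers 2 rose (1 without LKO-NC replicate 2), the adhesion molecule Vcam1, with 24.6, 27.4 and 28.3 CPM in LKO-HFHS livers, against 5.8, 3.52 and 4.81 CPM in LKO-NC livers, and Lyve1, whose call was lost without LKO-HFHS 1, 2 or 3 or LKO-NC 2 or 3 (adjusted p 0.0881 to 0.161). Summed endothelial markers were 192 to 290 CPM in LKO-HFHS and 117 to 208 CPM in LKO-NC, which overlap. Of 10 cholangiocyte markers tested only Spp1, which macrophages make as well, rose (1 without LKO-NC replicate 2 too), but all 10 log2 fold changes were positive, with a median of 1.60. The summed level of 11, mostly Spp1, was 176 to 235 CPM in LKO-HFHS and 40.7 to 52.0 CPM in LKO-NC. Lymphocytes and neutrophils gave few reads. The summed level of T and NK cell markers was 3.98 to 5.92 CPM in LKO-HFHS and 2.56 to 3.75 CPM in LKO-NC, that of B and plasma cell markers 14.3 to 20.7 CPM in LKO-HFHS and 9.79 to 20.8 CPM in LKO-NC, and that of neutrophil markers 3.11 to 4.53 CPM in LKO-HFHS and 2.65 to 12.1 CPM in LKO-NC. Ly6g, which defines neutrophils, had 0 counts in all 6 libraries. Of the adipocyte markers Adipoq, Lep, Plin1 and Retn had 0 counts in all 6 LKO libraries.

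Among 30 cell cycle genes 3 rose, and 1 did without LKO-NC replicate 2. Of the 30 log2 fold changes 26 were positive, with a median of 1.45, beside 0.05 over all tested genes. Over all tested genes 2.25% were higher, and 0.895% without that library. Ccnd1, the cyclin of entry into the cycle, had 63.2, 63.9 and 48.2 CPM in LKO-HFHS livers, against 12.7, 11.8 and 12.8 CPM in LKO-NC livers, with a log2 fold change of 2.23 ± 0.26 (SE). Mki67, a mark of dividing cells, had 7.86, 2.93 and 4.55 CPM in LKO-HFHS livers, against 0.264, 0 and 0.108 CPM in LKO-NC livers, and its call was lost without any 1 of the 6 LKO libraries (adjusted p 0.0612 to 0.132) and with the replicate block (0.0632). The count was 1 without LKO-HFHS replicate 2 or 3 or LKO-NC replicate 1, and 6 with the replicate block.

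The response of LKO livers was set beside that of floxed livers, which share no library with it. In floxed livers 464 of 15982 genes were called, or 2.9%. Of the 599 genes called in LKO livers 253 were also called in floxed livers, which is 42.2% of the LKO and 54.5% of the FLOX set, all with the same sign. Of all 599, 580 had the same sign of change in floxed livers, a share that was not counted over all tested genes. Across all 15982 tested genes, the log2 fold changes of the 2 responses had a Pearson r of 0.475 and a Spearman rho of 0.478. Across the 8096 genes with a mean of at least 5 CPM, r was 0.636 and rho 0.555. These values are a description over genes, which are not independent replicates.

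**Figure D5:**
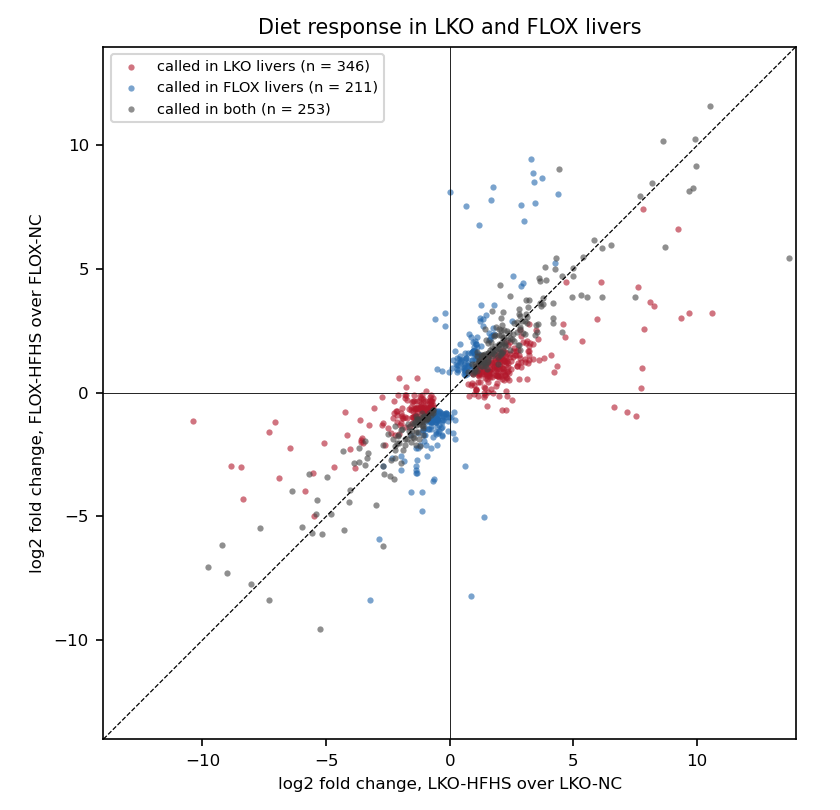
Log2 fold change by HFHS diet in LKO livers (x axis) against that in FLOX livers (y axis) for genes called in at least 1 genotype, with a dashed line where both are equal. Colours show in which genotype a gene was called. Of these genes 253 were called in both, and all of them lie in the quadrants where both changes have the same sign.

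A test of the difference itself, the diet effect in LKO minus that in FLOX livers, called 0 of 15982 genes by edgeR, with 782 (4.89%) at an unadjusted p under 0.05. DESeq2 called 33 (0.206%), 19 (0.119%) with a positive and 14 (0.0876%) with a negative difference, and limma with voom called 0. By edgeR without LKO-NC replicate 2, 0 were called, with 682 at an unadjusted p under 0.05, and 1 was called without FLOX-NC replicate 3. The number at an unadjusted p under 0.05 depended on the fit. It was 2645 by limma voom with sample weights, 1327 with the replicate block, 1278 without scaling and 1900 without FLOX-NC replicate 3. By DESeq2 it was 1006, and without FLOX-HFHS replicate 2 it was 596. A p above the threshold does not show that the responses were alike. The 6 genes of smallest p by the naming rule are given as values. Plscr4, of the phospholipid scramblase family, had 6.87, 7.37 and 6.36 CPM in LKO-HFHS livers, against 0.87, 1.37 and 1.39 CPM in LKO-NC livers. In floxed livers it had 2.75, 2.27 and 3.19 CPM in FLOX-HFHS livers, against 5.04, 3.24 and 1.8 CPM in FLOX-NC livers, and the difference between the log2 fold changes was 2.79 ± 0.51 (SE, unadjusted p 0.000124, adjusted p 0.758). The log2 fold change of Plscr4 was 2.50 ± 0.38 in LKO and -0.29 ± 0.36 in FLOX livers (SE).

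Socs2, whose values in LKO livers are given above, had 2.49, 3.53 and 0.597 CPM in FLOX-HFHS livers, against 15.2, 16.0 and 20.3 CPM in FLOX-NC livers, and the log2 fold change was 0.63 ± 0.51 in LKO and -2.96 ± 0.56 in FLOX livers (SE, unadjusted p of the difference 0.000383). Gsta1 rose in both genotypes, by 2.05 ± 0.34 in LKO and 4.37 ± 0.38 in FLOX livers (log2, SE, unadjusted p 0.000319). Il1r1, an interleukin-1 receptor, was at -0.51 ± 0.22 in LKO and 0.97 ± 0.22 in FLOX livers (unadjusted p 0.000387), and Cpeb2, an RNA-binding protein, at -1.33 ± 0.29 in LKO and 0.58 ± 0.29 in FLOX livers (unadjusted p 0.000426). The call of Cpeb2 in LKO livers was lost without LKO-HFHS 1, 2 or 3 or LKO-NC 3 (adjusted p 0.0612 to 0.0968). Hspa1b was at -2.24 ± 0.30 in LKO and -0.33 ± 0.29 in FLOX livers (log2, SE, unadjusted p 0.000495). None of the 6 passed after adjustment.

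By gene list, 9 of 23 heat shock chaperones and 10 of 29 genes of endoplasmic reticulum stress had an unadjusted p under 0.05 for the difference, beside 4.89% of all tested genes. Their median difference, LKO minus FLOX, was -0.63 and -0.68 (log2), beside 0.05 over all tested genes. Of the female-biased genes 9 of 29 had such a p, of the male-biased genes 8 of 36, and of the PPAR alpha list 7 of 39. Other lists had like shares: immediate early genes 5 of 23, acute phase and complement 6 of 35, conjugation and glutathione 7 of 41, MHC 4 of 24, cholesterol 4 of 27, lipid-associated macrophage markers 3 of 15, dendritic cell markers 2 of 8 and neutrophil markers 1 of 4. In the PPAR alpha list, Acot3 was at 2.28 ± 0.57 in LKO and -0.71 ± 0.55 in FLOX livers (log2, SE, unadjusted p 0.0024), and its counts were 3 rises and 0 falls in LKO livers and 0 rises and 6 falls in floxed livers. Of the fatty acid synthesis genes 1 of 29 had such a p, Aacs, which uses ketone bodies for lipid synthesis, which rose by 1.40 ± 0.24 (log2, SE) in LKO livers. Of the lipid droplet, Kupffer cell and stellate cell lists 0 genes did. As 0 genes passed after adjustment, these counts describe the lists and single none of them out.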

How the data were processed

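Liver RNA was sequenced as 12 libraries in 4 groups of 3. The gene table deposited by the authors holds estimated counts per gene, whole numbers with no scaling, 1 column per library. A second deposited table holds FPKM, used only for Lpcat3, on the log2(FPKM + 0.1) scale. The submitters' processing notes name cutadapt, FastQC, HISAT2, StringTie and edgeR and the build mm10, with no versions, roles or settings. A kit for stranded mRNA libraries is named per the labels' protocols, but use of strand in counting is not stated, so overlapping and antisense genes may share reads.

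Genes that passed filterByExpr were fitted in 1 model of the 12 libraries (R 4.3.3, edgeR 4.0.16 quasi-likelihood, robust, TMM, Benjamini-Hochberg). The counts needed no rounding, and the test planned for counts was kept. Coordinates are those of mm10. Within each LKO group the libraries differed from each other by far more than sampling noise, and none was counted as a copy. Pairs of libraries from different groups were not compared in this way. Depth was 34951150 to 59205759 counts per library, and bounds cover counting error only. The data did not clearly pair the LKO libraries by replicate number. Deviations of the same number correlated at 0.29, 0.12 and 0.10 between the diets for replicates 1, 2 and 3. The unlike pair of LKO-HFHS 2 and LKO-NC 3 reached 0.11, so only replicate 1 stood apart. The labels do not say what a number marks, and the fit with replicate blocks is given only as an alternative.

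The groups and gene lists were chosen with earlier results of these data known. Text genes were taken by a rule: Lpcat3, the 6 largest rises and falls by fold and by CPM that also passed without LKO-NC replicate 2, with a mean of at least 5 CPM in the higher group, the 3 members of smallest p in each list, and the 6 of smallest p for the difference between genotypes. Other genes in the text were chosen after their values were seen, for their role in a pathway. Alternatives were DESeq2 1.42.0 and limma 3.58.1 with voom, RLE scaling or none, other filters, the LKO libraries alone, the ribosomal share, the replicate block and each library left out. The fit was tested on simulated data.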

Additional observations from a re-analysis of the deposited data

How the results depend on the processing

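The number of genes called in LKO livers was 599. It was 1562 by DESeq2 and 2284 by limma voom with sample weights. With each of the 12 libraries left out in turn it ran from 220 to 887. It stayed within 1.5 times the main count with RLE factors (597), no scaling (509), no filter (542), at least 1 CPM in 3 libraries (658), the 6 LKO libraries alone (882), no ribosomal or mitochondrial genes (601) and the ribosomal RNA share as a covariate (846). The count for the difference between genotypes was 0, against 33 by DESeq2 and 0 to 1 with 1 library left out. With the replicate number as a block 1118 genes were called, 580 of them among the 599. The replicate block changed no call of a named gene other than those given with its value. Cfd, at 0.05 (log2), was at -0.040 with the ribosomal covariate and ran from -0.56 to 0.87 with 1 library left out (-0.41 without LKO-HFHS replicate 1). Csf3r, at -0.53, was at 0.091 by voom and ran from -0.97 to 0.088 (its highest without LKO-NC replicate 1). When LKO-NC replicate 2 was left out, mt-Nd3 was at 0.43, beside -1.92 with all libraries (range -2.48 to 0.43), and Lpcat3 at 0.26, beside -0.45 (range -0.78 to 0.26). None of these 4 genes was called in any of the fits named, and the cause was not tested. Limits are the 3 libraries per group, the spread between them in matrix, macrophage and stress genes, 1 LKO-NC library with Lpcat3 at the floxed level in CPM, and low counts of immune genes. In the Lpcat3 gene the FPKM table gave a log2 change of -0.08.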

Other observations

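The summed level of erythroid markers was 91.6, 153 and 115 CPM in LKO-HFHS, against 155, 388 and 219 CPM in LKO-NC. The groups did not overlap, but LKO-HFHS replicate 2 and LKO-NC replicate 1 were nearly equal. In floxed livers the sums overlapped, with 105, 185 and 88.6 CPM in FLOX-HFHS, against 94.0, 190 and 235 CPM in FLOX-NC. Of the 7 markers tested 1 fell, and 0 did without LKO-NC replicate 2. Alas2, the first enzyme of heme synthesis in red cell precursors, had 15.2, 21.7 and 18.1 CPM in LKO-HFHS livers, against 31.2, 65.5 and 52.8 CPM in LKO-NC livers. Its log2 fold change was -1.44 ± 0.35 (SE, edgeR adjusted p 0.0387), a call lost without LKO-HFHS 1, 2 or 3 or LKO-NC 2 or 3 (adjusted p 0.0762 to 0.17) and without a scaling factor (0.128). The other 6 tested markers were not called.

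A few strongly changed genes belong to lists described above but were not given there. Cyp26a1, which breaks down retinoic acid, had 3.03, 2.1 and 2.05 CPM in LKO-HFHS livers, against 18.6, 4.31 and 15.0 CPM in LKO-NC livers. The groups did not overlap, as for every called gene and 29.9% of all tested genes. The log2 fold change was -2.40 ± 0.53 (SE, edgeR adjusted p 0.0243, 0.0612 with the replicate block), a call lost without LKO-HFHS 1, 2 or 3 or LKO-NC 1 or 3 (adjusted p 0.0645 to 0.121). Sult1c2, a cytosolic sulfotransferase, had 6.65, 6.41 and 7.96 CPM in LKO-HFHS livers, against 1.16, 2.44 and 2.2 CPM in LKO-NC livers, a rise of 1.85 ± 0.29 on the log2 scale (SE, edgeR adjusted p 0.004). Elovl7, an elongase of long fatty acids, had 3.27, 4.28 and 6.25 CPM in LKO-HFHS livers, against 0.686, 0.105 and 0.27 CPM in LKO-NC livers. It rose by 3.70 ± 0.63 on the log2 scale (SE, edgeR adjusted p 0.00675). In floxed livers Elovl7 had 0.844, 2.15 and 1.89 CPM in FLOX-HFHS livers, against 0.199, 0.132 and 0.107 CPM in FLOX-NC livers.

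Per3, a period gene of the circadian clock, had 19.0, 11.5 and 14.4 CPM in LKO-HFHS livers, against 5.67, 3.54 and 1.5 CPM in LKO-NC livers. The groups did not overlap, as for 29.9% of all tested genes. Per3 was not called, with an edgeR adjusted p of 0.0916 (0.00435 with the replicate block). Of 19 clock genes tested 0 were called, and 1 was with the replicate block. In floxed livers Per3 had 14.9, 4.56 and 5.97 CPM in FLOX-HFHS livers, against 18.01, 8.43 and 3.46 CPM in FLOX-NC livers, values that overlap. The time of day of sampling is not given by the labels.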
